A study of Mus musculus with 14 samples.

Results

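The genes described here are 10 mouse genes of the neutrophil and interleukin-1 response: Il1a, Il1b, Il1rn, Il1r2, S100a8, S100a9, Csf3r, Trem1, Il6 and Icam1. They were chosen by name, and each was measured by 1 probe, so that 10 of the 55681 non-control probes on the array were read. Their RNA was followed on 14 one-color Agilent arrays of 5 groups. Small intestine (3 arrays) and colon (3) were whole tissue labelled as taken from adult wild-type C57BL/6J mice. Macroscopic adenomas (3) and tissue adjacent to adenoma (2) were whole pieces of intestine from APCmin/+ mice, which carry a truncating germline mutation in 1 copy of the tumor suppressor Apc and develop many intestinal adenomas. CT26 (3) is a mouse colorectal carcinoma cell line of BALB/c origin, grown in culture without other cell types. The supplement of the study lists the small intestine pieces under different mice and all adenoma and adjacent pieces under 1 APCmin/+ mouse. The spread between adenoma arrays is therefore that between pieces, and p-values measure the spread between these samples only. The supplement also puts 1 colon sample under an APCmin/+ mouse, against the labels. The study's methods state that normal colon tissue came from APCmin/+ mice, whereas its design speaks of colon from healthy mice. The genotype of the colon group is thus not settled.

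Interleukin-1 alpha and beta are alarm cytokines that bind a common receptor on epithelial, stromal and endothelial cells and switch on NF-kB. The pathway is restrained by a soluble antagonist, encoded by Il1rn, and by a decoy receptor, encoded by Il1r2. Among its downstream products are IL-6, adhesion molecules such as ICAM-1 and chemokines that draw neutrophils from blood. Neutrophils carry large amounts of the calcium-binding proteins S100A8 and S100A9, which form calprotectin, a marker used in stool to follow intestinal inflammation. They also bear the receptor for granulocyte colony-stimulating factor (Csf3r) and the amplifying receptor TREM-1. In whole tissue, fewer cells of a type and less RNA per cell cannot be told apart.

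Each value below is a scaled log2 signal, the log2 of the background-subtracted processed signal minus the 75th percentile of its array. A value of 0 is thus the 75th percentile of that array, and a negative value is a signal below it. A probe was taken as measured where the scanner software marked it well above background, which held for 46.8% of probes on colon replicate 3, the lowest share, and for up to 58.2% on the other arrays. The library labelled colon replicate 3 stood apart from its group. Its colonocyte marker Car1 was at -3.09, against 7.17 and 7.75 on colon replicates 1 and 2, and its ileal marker Fabp6 was at 11.12, against 1.84 and 1.42. Results that rest on colon are given with and without it. The arrays lay on 2 slides, and every comparison had arrays of both groups on both.

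The probes are single-stranded DNA of 60 bases, and their letters bear on what the values mean. The following stretches are shown because the probes of S100a8, S100a9 and Il1b carry the strongest results, whereas those of Csf3r and Trem1 were bright in every sample. Letters in capitals hold runs shared with other genes.
S100a8 probe, bases 1 to 30: cttgttcagagaattggacatcaatagtga
S100a9 probe, bases 1 to 30: gtctaaagggaatggcttactcaatggcct
Il1b probe, bases 1 to 30: aggttcctataatatggatgagaattttta
Csf3r probe, bases 24 to 53: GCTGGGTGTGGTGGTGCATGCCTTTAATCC
Trem1 probe, bases 24 to 53: TTGTTGTTGTTGTTGTTGTTGTTGTTGTTG
The Trem1 stretch is a simple repeat of TTG. The Csf3r probe shared a run of at least 15 bases with 10 probes of other genes on the array, and the Trem1 probe with 11. In each case 8 of these were well above background on all 14 arrays. The Il1a and Il1rn probes each shared such a run with 1 other probe, and the remaining 6 members with 0. By the annotation in the scanner files (mm9), the Csf3r probe lies at chr4:125721478-125721537 on the plus strand and the Trem1 probe at chr17:48385849-48385908 on the plus strand. The S100a8 probe lies at chr3:90473778-90473837 on the plus strand. The S100a9 probe, at chr3:90496573-90496632 on the minus strand, is 22.7 kb away. The interleukin-1 genes are neighbors as well, with the Il1b probe at chr2:129190347-129190406 and that of Il1a at chr2:129125994-129126053, both on the minus strand.

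Of the ligands, Il1b was highest in adenomas on every array. The adenoma arrays read 0.72, 0.61 and 0.61, against -2.33 and -1.60 in adjacent tissue and -4.18, -3.82 and -3.58 in small intestine. In colon Il1b was at -4.79, -2.44 and -2.84, and in CT26 at -5.91, -7.00 and -6.96, below the background limit on all 3 arrays. The groups of adenoma, adjacent tissue and small intestine did not overlap, and the SD of the adenoma arrays was 0.06 (n = 3). Il1a, the partner ligand released by damaged cells, was well above background on only 1 array, adenoma replicate 1, at -4.08. The other adenoma arrays read -5.07 and -5.57. Il1a was too dim to enter any test.

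Il1rn, the antagonist, read -1.38, -1.72 and -2.21 in adenomas, -4.01 and -3.00 in adjacent tissue, and -5.89, -6.20 and -4.47 in small intestine. All small intestine values were below the background limit. In colon the arrays were far apart, at -1.52, -2.58 and -5.80, and the top of this range met that of the adenomas. The decoy receptor Il1r2 read -2.14, -1.86 and -2.13 in adenomas, -1.77 and -3.00 in adjacent tissue and -3.41, -3.31 and -3.53 in small intestine. The adjacent pieces thus lay on either side of the adenomas. Colon was at -6.11, -4.37 and -3.35, and CT26 between -7.18 and -6.67, not well above background.

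Both subunits of calprotectin were near or above the 75th percentile of the array in adenomas alone. S100a9 read 1.4, 1.28 and 1.69 there, against -2.13 and -1.68 in adjacent tissue, -4.44, -4.92 and -4.02 in small intestine and -6.56, -4.18 and -3.86 in colon. S100a8 read -1.01, -0.94 and -0.75 in adenomas, -5.65 and -4.01 in adjacent tissue, -6.23, -6.36 and -5.89 in small intestine and -7.01, -6.10 and -5.91 in colon. The pair parted in CT26. There S100a8 was well above background on all 3 arrays, at -3.91, -3.33 and -3.59, above every array of small intestine and colon. S100a9 was not well above background on any CT26 array, at -6.92, -6.38 and -6.72.

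Il6, a cytokine made by many cell types after interleukin-1 stimulation, was the member with the widest spread among tumors. Its adenoma values were 0.14, -0.70 and -1.71. CT26 read 1.84, -3.58 and -2.30, an SD of 2.83, with replicate 1 far above the other two. In small intestine (-7.23 to -6.23), adjacent tissue (-5.98 to -5.59) and colon (-7.33 to -5.83) Il6 was not well above background on any array. Icam1, the endothelial and epithelial ligand that neutrophils grip by their beta-2 integrins, read -1.95, -2.14 and -1.85 in adenomas and -4.14 and -4.03 in adjacent tissue. It was at -5.51, -4.50 and -4.69 in small intestine, below the limit, and at -4.93, -2.87 and -3.66 in colon. CT26 had no Icam1 signal well above background.

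The probes of the neutrophil receptors Csf3r and Trem1 did not follow the other members. Csf3r lay between 4.90 and 6.36 and Trem1 between 0.00 and 1.57 over all 14 arrays. Both were well above background in CT26, a cell line without neutrophils, where Csf3r averaged 6.08 ± 0.26 (SD, n = 3) and Trem1 1.01 ± 0.06. The part of the shared letters shown above in these levels was not tested. Over the 10 members, the highest group mean was that of adenomas for 8, of adjacent tissue for Trem1 and of CT26 for Csf3r. Members well above background on every array of a group numbered 9 in adenomas, 7 in adjacent tissue, 4 in small intestine, 4 in CT26 and 2 in colon. Csf3r and Trem1 are in each of these counts and were the only 2 in colon. Over all 55681 probes, 20832 were well above background on all 14 arrays. The shares of all probes per group, and of those highest in adenomas, were not counted.

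**Figure D1:**
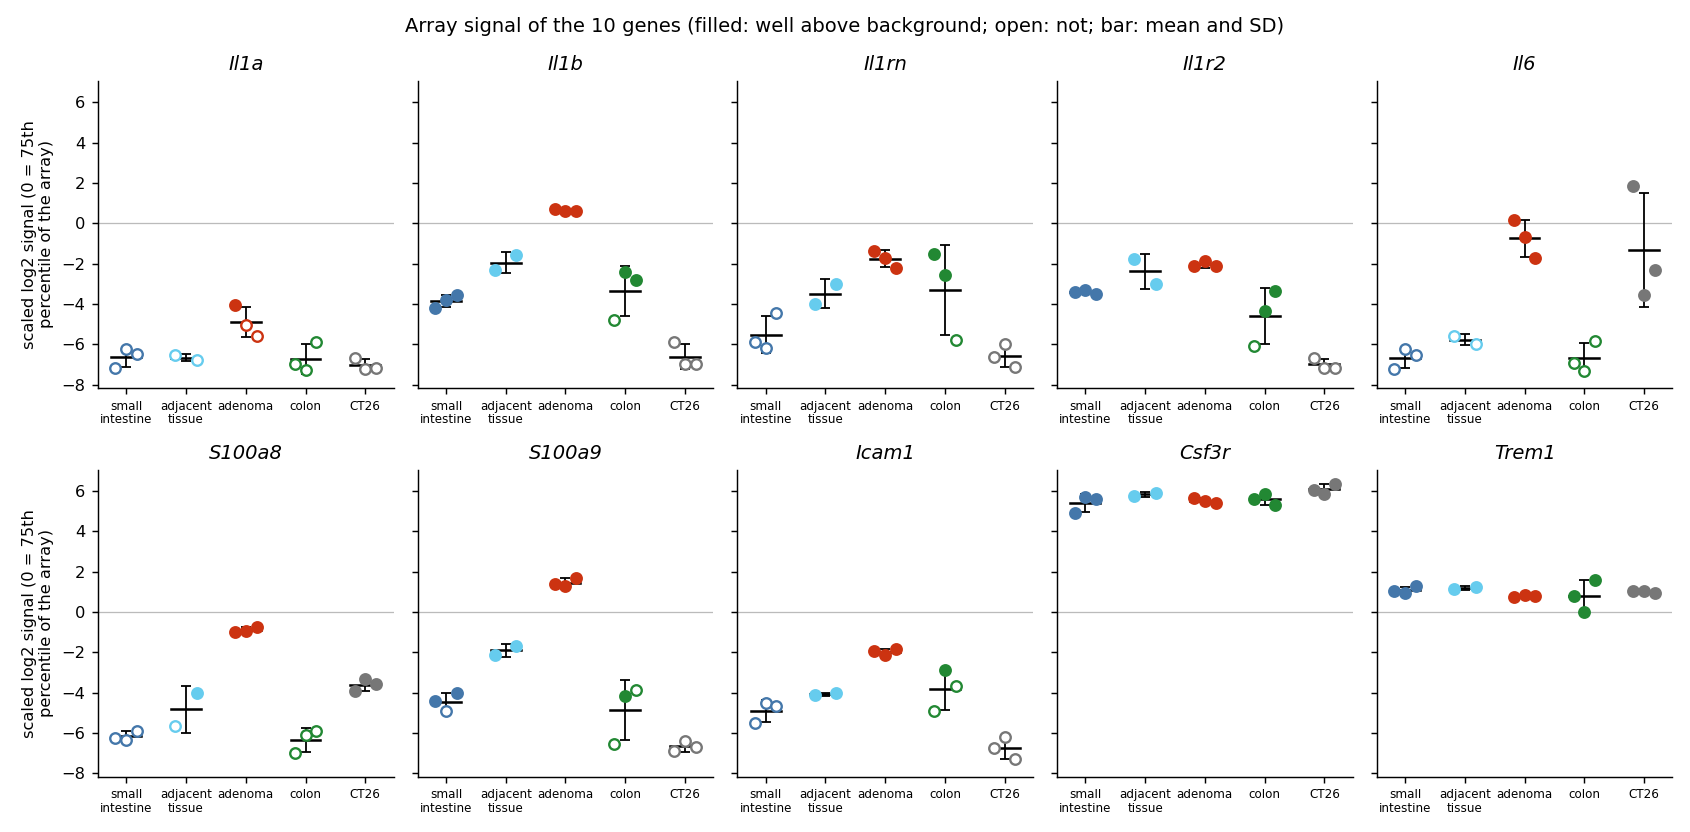
Scaled log2 signal of each of the 10 genes on the 14 arrays, by group, with the mean and SD of each group. Filled points are well above background and open points are not. For Il1b the adenoma arrays lie between 0.61 and 0.72, above every other array, whereas Csf3r stays between 4.90 and 6.36 in all groups.

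**Figure D2:**
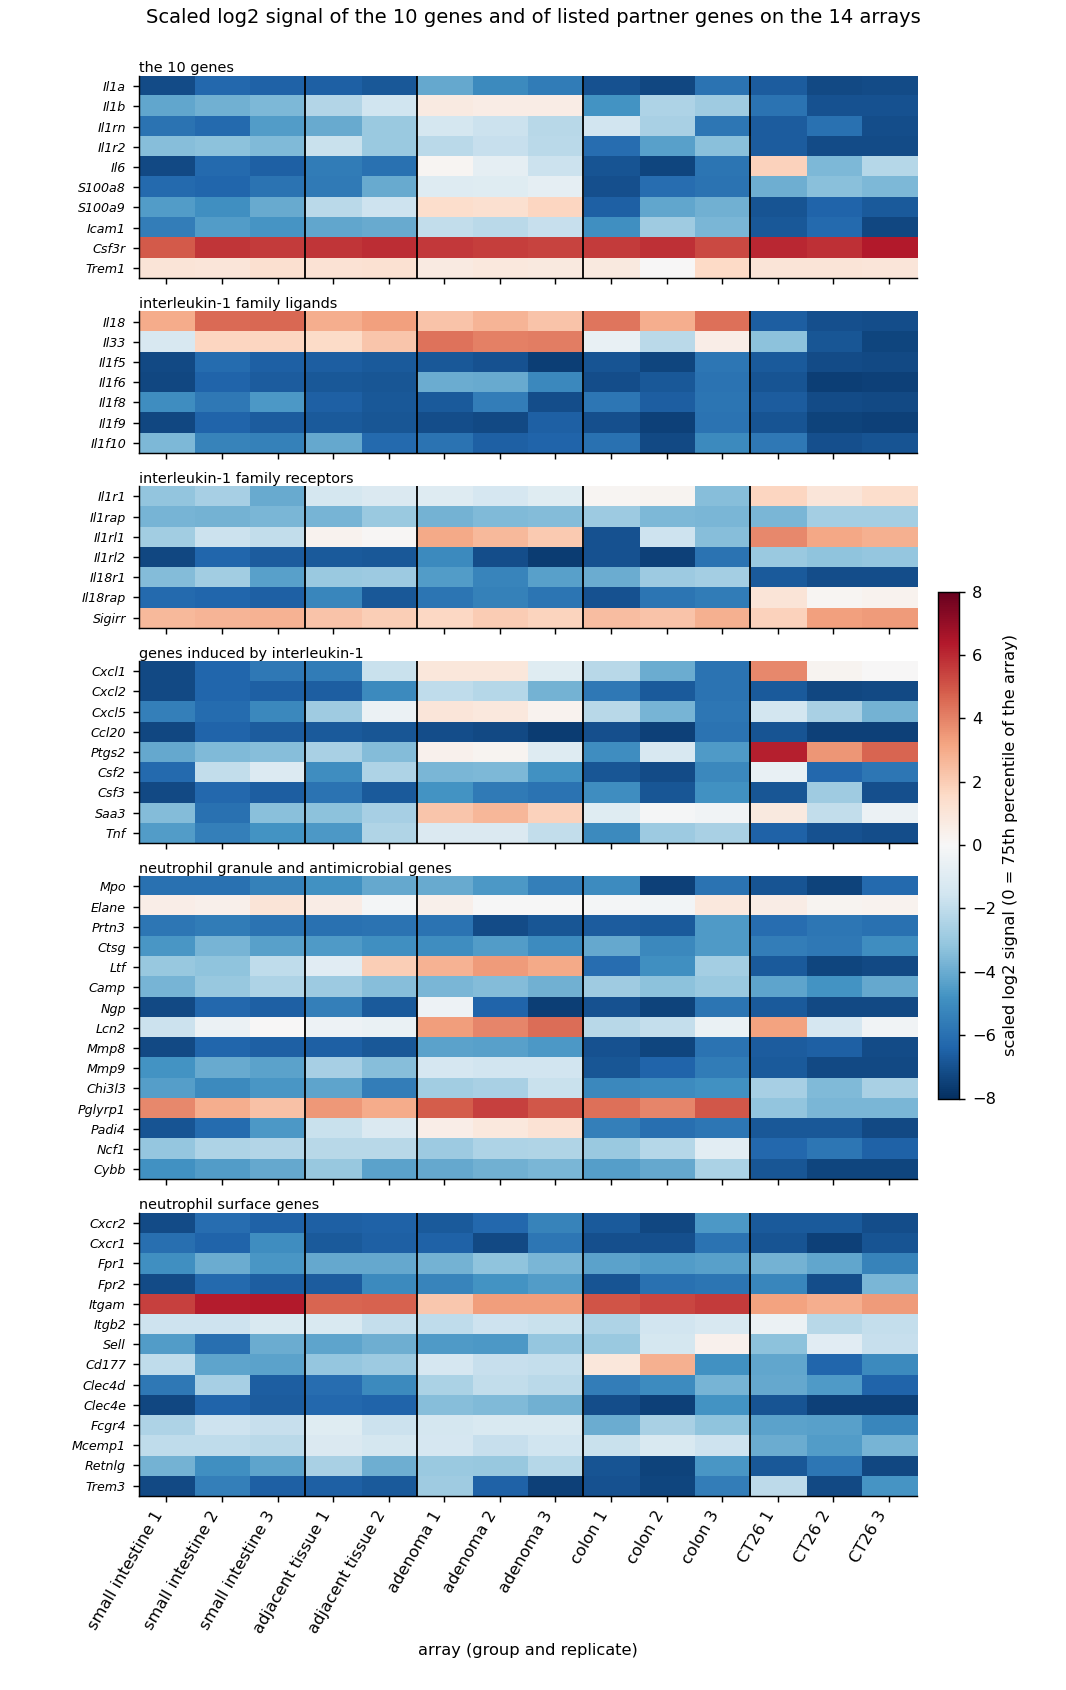
Scaled log2 signal of the 10 genes and, in the blocks beneath, of interleukin-1 family, interleukin-1 induced and neutrophil list genes (rows) on the 14 arrays (columns, ordered by group), on a common color scale where 0 is the 75th percentile of the array. In the top block 8 rows have their highest group mean in adenomas, and the Csf3r and Trem1 rows vary little, CT26 included.

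Adenomas were compared with healthy small intestine, which came from other mice of another genotype. The ileal marker Fabp6 read 9.95, 1.60 and -1.74 in small intestine and 8.12 and -0.83 in adjacent tissue. In adenomas it read -1.76, -1.42 and -1.78. The pieces may thus differ in position along the gut, and its part in the differences was not tested. A gene was called when its log2 difference was at least 1.2 in size with an adjusted p of at most 0.01, in limma over all probes tested. Of the 9 members tested, 7 rose in adenomas and 0 fell, with a median log2 difference of 3.75. Over all 29539 probes tested 10.9% were called higher, 3231 were called lower, and the median difference was -0.15. Il1rn, S100a8, S100a9, Il6 and Icam1 entered the test through adenoma alone, where they are high, so that their direction is no independent support. Of the 4 members measured on every array of both groups 2 were called. S100a9 rose by a log2 difference of 5.92 ± 0.26 (SE, adjusted p = 4.83e-05), or 60.4-fold, and was well above background on 2 of the 3 small intestine arrays. Il1b rose 22.7-fold, by 4.51 ± 0.19 (adjusted p = 4.83e-05), and was measured on every array of both groups.

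For members that small intestine did not show above background, the fold is a lower bound. It sets the mean of the adenomas against the lowest signal well above background on each small intestine array, or the gene's own signal where that was higher. Il6 was at least 13.4-fold higher in adenomas (adjusted p = 0.000204), S100a8 at least 12.1-fold (adjusted p = 4.15e-05), Il1rn at least 6.64-fold (adjusted p = 0.000905) and Icam1 at least 5.75-fold (adjusted p = 0.000359). The decoy receptor Il1r2 rose least, by 2.59-fold, a log2 difference of 1.37 ± 0.16 (adjusted p = 0.000805). The ligand Il1b and its antagonist Il1rn thus rose together, with Il1b measured on both sides. Csf3r differed by 0.12, with a 95% confidence interval of -0.46 to 0.70, and Trem1 by -0.31, with an interval of -0.69 to 0.07. These folds hold for the processing used here, and other treatments gave smaller ones. Over the alternatives the lowest log2 difference was 4.21 for S100a9, 3.09 for Il1b, 2.51 for Il6 and 2.22 for S100a8. It was 1.42 for Il1rn and 1.22 for Icam1, and each of these genes was still called. Leaving out each array in turn kept all 7 calls. The call of Il1r2 was lost with the authors' normalized table (0.78, adjusted p = 0.00325, under the fold threshold), with normexp background correction (0.63, adjusted p = 0.0127) and in a fit of all 5 groups (adjusted p = 0.0646).

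Adenomas were next set against the tissue beside them. Of 9 members tested 5 rose and 0 fell, with a median difference of 2.11, where 2.27% of all 29733 probes tested were called higher and the median was -0.05. S100a8 and Il6 entered the test through adenoma alone. Of the 7 members measured on every array of both groups 3 were called. S100a9 rose 10.3-fold, by 3.36 ± 0.21 (adjusted p = 0.00216), and Il1b 6.12-fold, by 2.61 ± 0.24 (adjusted p = 0.00461). Icam1 rose 4.31-fold (adjusted p = 0.00312). S100a8 rose 15.2-fold (adjusted p = 0.00714), or 9.98-fold with the adjacent array below background raised to its limit, and Il6 at least 13.2-fold (adjusted p = 0.00576). Il1rn missed the threshold at a difference of 1.74 ± 0.38 (adjusted p = 0.0308), and Il1r2 differed by 0.34 ± 0.37 (adjusted p = 0.527).

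With 2 adjacent arrays these calls lay close to the threshold. With slide as a block, the call of S100a9 remained (adjusted p = 0.00926), and the adjusted p was 0.0106 for Il1b, 0.0104 for Icam1, 0.0125 for S100a8 and 0.0149 for Il6. The differences themselves held on each slide. On slides 1 and 2 Il1b differed by 3.0 and 2.21, S100a8 by 4.77 and 3.07, S100a9 by 3.67 and 2.96, Il6 by 4.81 and 5.28 and Icam1 by 2.25 and 1.89. Without any 1 of the adenoma arrays, 0 members were called, without adjacent replicate 1 there were 3 (Il1b, S100a8 and S100a9), and without adjacent replicate 2 there were 4, Icam1 added. In limma without the filter on dim probes 0 were called, with adjusted p from 0.0102 to 0.0226 for these 5 genes. The sizes also depended on the processing. Over the alternatives the lowest log2 difference was 2.96 for S100a9, 2.22 for Il6, 2.1 for Il1b, 1.98 for S100a8 and 0.97 for Icam1.

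Adjacent tissue was compared with healthy small intestine, both without visible tumor. Of 7 members tested 0 were called, against 0.00694% of all 28832 probes tested (2 probes). At an unadjusted p below 0.05 in limma there were 4, all higher in adjacent tissue, beside 8750 of the 28832 probes in either direction. They were S100a9, with a difference of 2.56 ± 0.33 or 5.88-fold (adjusted p = 0.0421), Il1b, with 1.89 ± 0.32 or 3.71-fold (adjusted p = 0.0513), Il1rn, with 2.01 ± 0.59 (adjusted p = 0.0957), and Il1r2, with 1.03 ± 0.38 (adjusted p = 0.14). The adjacent means of these 4 genes lay between those of small intestine and adenoma. S100a9, Il1rn and Icam1 entered the test through adjacent tissue alone, where they are high, so that their direction is no independent support. Il1rn was below the limit on all small intestine arrays, and its fold is a lower bound, at least 1.99. Icam1 differed by 0.81 ± 0.35 (adjusted p = 0.176). S100a8 and Il6 were too dim in both groups to be tested.

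**Figure D3:**
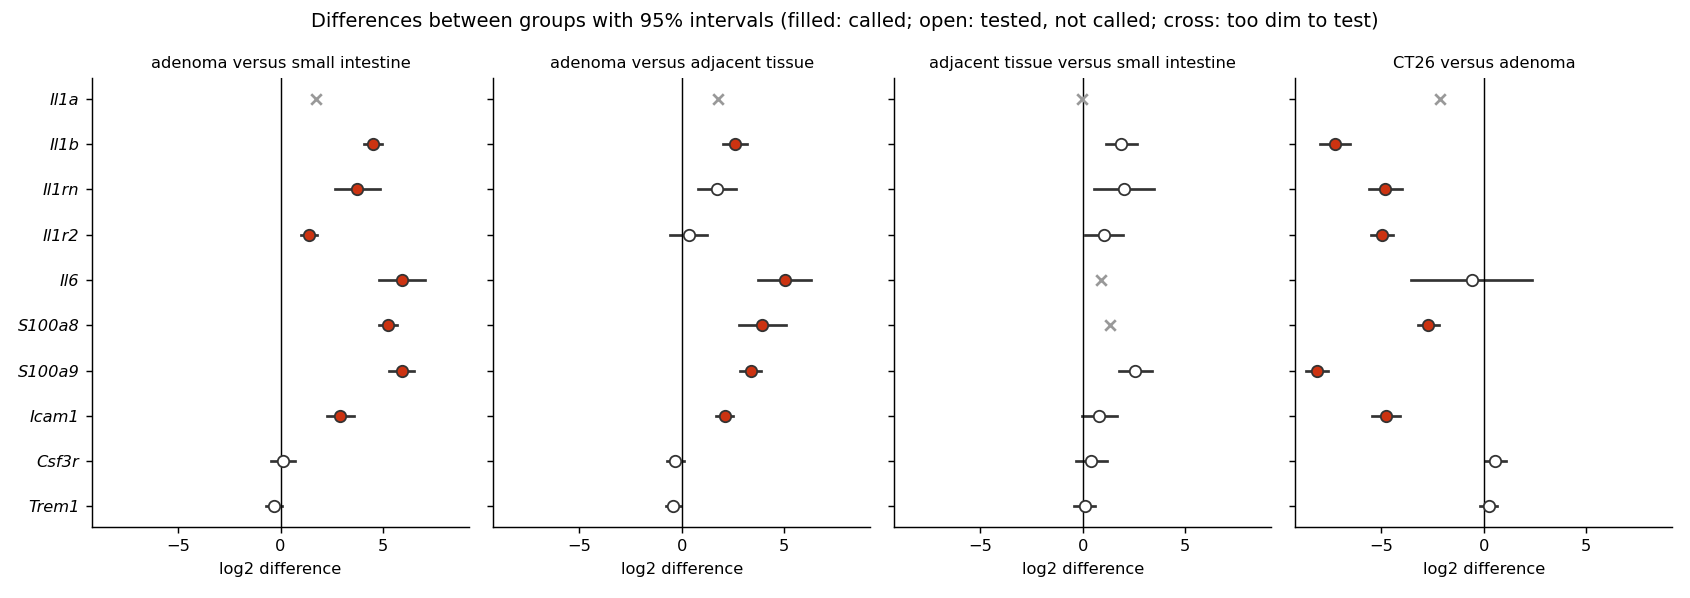
Log2 difference (x axis) of each member with its 95% confidence interval in 4 comparisons (panels). Filled points were called, open points were tested and not called, and crosses were too dim to test. Intervals of Csf3r and Trem1 between adenoma and small intestine span 0, whereas those of the 7 called members lie above it.

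Between colon and small intestine, the tissues the study calls healthy, 0 of 4 members tested were called in limma. Over all 27298 probes 0.00733% were called in either direction. Of these members 0 had an unadjusted limma p below 0.05, beside 6413 of all probes. Il1b differed by 0.50 (95% confidence interval -0.96 to 1.97) and Il1r2 by -1.20 (-2.77 to 0.38). Without colon replicate 3, Il1r2 differed by -1.82 (adjusted p = 0.0466), and Il1rn, which could then be tested, was higher in colon by 3.47 (adjusted p = 0.0121). Neither was called.

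Against colon, 3 of 9 members tested rose in adenomas and 0 fell, beside 1.98% of all 29173 probes called higher. These 3 entered the test through adenoma alone, and 0 of the 2 members measured on every array of both groups were called. S100a9 rose 79.9-fold, by 6.32 ± 0.71 (adjusted p = 0.00537), with 1 colon array well above background. With the other colon arrays raised to their background limit it was 49.7-fold higher. Il6 was at least 13.3-fold higher (adjusted p = 0.00368) and S100a8 at least 12.1-fold (adjusted p = 0.00119). Il1b differed by 4.0 ± 0.60 and missed the threshold (adjusted p = 0.0119), as did Il1r2 (2.57, adjusted p = 0.0587), Icam1 (1.84, adjusted p = 0.069) and Il1rn (1.53, adjusted p = 0.403). Without colon replicate 3 the count was 5, with Il1b at 4.26 (adjusted p = 0.00755) and Il1r2 at 3.20 (adjusted p = 0.00809) added, while Il1rn came to 0.28 (adjusted p = 0.639). Without any 1 of the adenoma arrays 0 members were called, and without colon replicate 2 there was 1, S100a8. With slide as a block S100a8 remained (adjusted p = 0.00922), and the adjusted p was 0.0226 for S100a9 and 0.0156 for Il6.

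CT26 cells were compared with colon, and 2 of 4 members tested rose, beside 21.5% of all 29398 probes called higher. These 2 entered the test through CT26 alone, and 0 of the 2 members measured on every array of both groups were called. S100a8 was at least 1.85-fold higher in CT26 (adjusted p = 0.000708) and Il6 at least 8.86-fold (adjusted p = 0.00895). For Il6 the CT26 arrays differed among themselves, and the difference was 7.10 on slide 1 and 2.80 on slide 2. Neither gene was called with the authors' table (S100a8 1.04, Il6 2.56), with normexp correction (S100a8 0.45, Il6 2.22) or with low signals raised to a floor (S100a8 0.88, Il6 3.15). The call of Il6 was lost with slide as a block (4.95, adjusted p = 0.0231), with no filter on dim probes (adjusted p = 0.0117), without CT26 replicate 3, and without colon replicate 1, 2 or 3 (adjusted p = 0.0109 for the last). S100a8 was called without each array in turn, with an adjusted p of 0.000544 without colon replicate 3. The remaining members were not tested, being below the limit on all CT26 arrays and on 1 or more colon arrays (all of them for Il1a). The colon mean was at least 3.08-fold higher than CT26 for Il1b, 3.21-fold for Il1rn, 2.23-fold for Icam1, 1.29-fold for Il1r2 and 1.08-fold for S100a9. Without colon replicate 1, Il1b and Il1r2 could be tested and were called lower in CT26, by -3.98 and -3.14. Without colon replicate 3 so was Il1rn, by -4.53 (adjusted p = 0.000187). Each of these genes then entered the test through colon alone and could hardly come out otherwise. As CT26 was below the limit, the differences are no measured sizes.

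CT26 was also set against adenomas, the other tumor sample. Of 9 members tested 6 fell and 0 rose, with a median of -4.79, beside 18.7% of all 31013 probes called lower and a median of 0.37. Of the 6, all but S100a8 entered the test through adenoma alone, where they are high, and could hardly come out otherwise. Of the 4 members measured on every array of both groups 1 was called. S100a9 was at least 86.5-fold lower in CT26 (adjusted p = 8.69e-08) and Il1b at least 49.3-fold (adjusted p = 6.01e-07). Il1rn was at least 9.25-fold lower, Icam1 at least 8.01-fold and Il1r2 at least 7.65-fold. S100a8, measured in both, was 6.53-fold lower (adjusted p = 2.19e-05). Il6 was the exception among the inflammatory members, at -0.59 with a 95% confidence interval of -3.54 to 2.35 (adjusted p = 0.706). On slide 1 Il6 differed by 0.55 and on slide 2 by -2.88. The 6 calls remained with slide as a block and without each array in turn.

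Finally, the difference between adenoma and small intestine was tested against that between CT26 and colon, contrasts that share no array. It was larger in adenomas for 6 of 9 members tested, beside 14.2% of 31930 probes called in that direction. The gap was 7.77 ± 0.74 on the log2 scale for Il1b (adjusted p = 1e-05), 7.72 ± 0.81 for S100a9 (adjusted p = 2.12e-05) and 2.53 ± 0.42 for S100a8 (adjusted p = 0.000622). For Il6 it was 0.56 ± 1.55 (adjusted p = 0.791). All of the 6 genes but S100a8 were below the background limit in CT26, and S100a8 was below it in small intestine and colon. The fitted gaps are therefore no measured sizes. The count was 6 without colon replicate 3 as well.

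**Figure D4:**
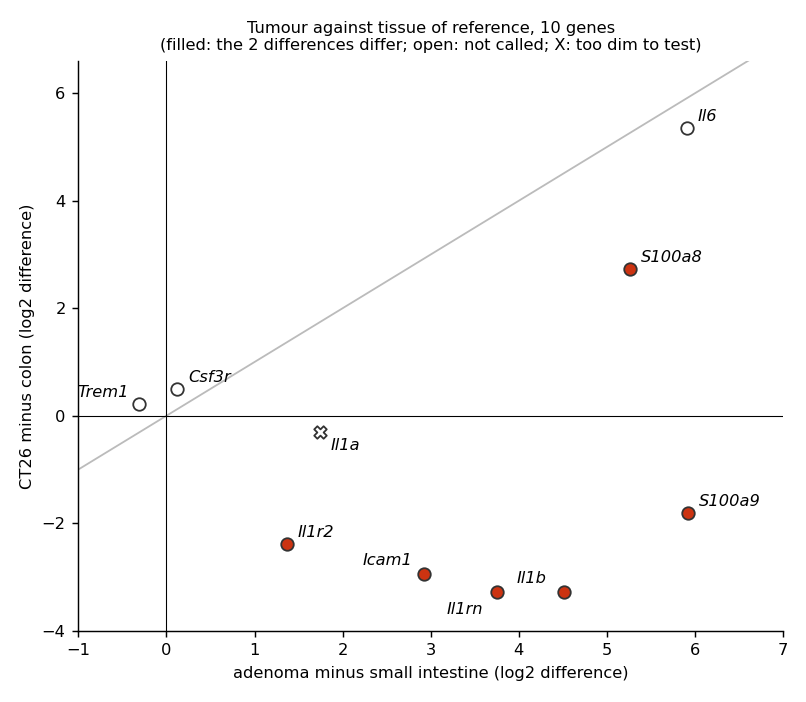
Log2 difference between adenoma and small intestine (x axis) against that between CT26 and colon (y axis) for each of the 10 genes. Il6 lies high on both axes, at 5.91 and 5.35, whereas Il1b lies at 4.51 and -3.27.

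Other genes of the same pathways were read from lists by the same rules. Beside their counts, 10.9% of all probes were called higher and 10.9% lower between adenoma and small intestine. Among 15 neutrophil granule and antimicrobial genes, 11 were tested between adenoma and small intestine, 7 rose and 0 fell, with a median of 2.29. Padi4, which citrullinates histones in neutrophils, was at least 40.5-fold higher (adjusted p = 0.00021). Ltf, encoding lactoferrin, rose 57.5-fold (adjusted p = 9.05e-05) and Lcn2, an iron-siderophore binder also made by inflamed epithelium, 24.7-fold (adjusted p = 0.000496). The others were Mmp9 (7.39-fold), Chi3l3 (5.06-fold), Mmp8 (at least 1.07-fold) and Pglyrp1 (4.12-fold). Padi4, Mmp9, Chi3l3 and Mmp8 entered the test through adenoma alone. Of the defining markers of neutrophils, Cxcr1, Cxcr2 and Prtn3 were not well above background on any array, Mpo on 3 of 14, and Ngp on 1, adenoma replicate 1, at -0.42. Elane was flat, between -0.20 and 1.03 on all arrays, CT26 included. Ly6g was not found on the array by name. Over the 14 neutrophil surface genes on the array, 9 were tested, of which 1 rose (Clec4e, at least 1.89-fold) and 1 fell (Itgam, 8.53-fold lower, adjusted p = 0.000968), shares near those of all probes. The Itgam probe was well above background on all 14 arrays, CT26 included, at 3.22, 2.88 and 3.43 there. What it reads in CT26 was not tested.

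In the interleukin-1 family, Il33, an alarm cytokine of epithelial and stromal nuclei, rose 10.9-fold in adenomas over small intestine (adjusted p = 0.00932), and Il1f6 was at least 1.09-fold higher (adjusted p = 0.00251). Il18 read lower, by -1.60 (adjusted p = 0.02), and was not called. Il1f5, Il1f8, Il1f9 and Il1f10 were too dim to test. Of the receptors, Il1rl1, which binds the Il33 product, rose 26.7-fold (adjusted p = 0.00014) and Il1r1, the signaling receptor for Il1a and Il1b products, 4.53-fold (adjusted p = 0.00281). The accessory chain Il1rap differed by 0.11 and the inhibitory receptor Sigirr by -0.87 (adjusted p = 0.00636, under the fold threshold). Il1rl2, Il18r1 and Il18rap were not tested in this comparison. In CT26, Il18 was at least 170-fold lower than in adenomas, whereas Il18rap was at least 45.7-fold higher, Il1r1 5.47-fold and Il1rl2 at least 3.79-fold.

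Next came genes that process and relay the signal. Of 7 inflammasome and processing genes tested, 4 fell in adenomas and 0 rose, with a median of -1.49. They included the caspases Casp4 (-2.51, adjusted p = 0.000476) and Casp1 (-1.96, adjusted p = 0.000179), and Gsdmd (-1.53, adjusted p = 0.00386), the pore through which mature IL-1 beta leaves cells. The remaining gene, named after its values were seen, was Il18bp (-1.49), a soluble binder of the Il18 product. Of 13 receptor signaling genes 1 rose, Irak1 by 1.33, and 2 fell, Tollip by 1.65 and Irak2 by 1.31 on the log2 scale, shares near those of all probes. Genes induced by interleukin-1 rose in 6 of 7 tested, with a median of 4.0. Most of the 6 entered the test through adenoma alone. The neutrophil chemokines Cxcl1 and Cxcl5 were at least 27.4-fold and 36.3-fold higher, and Saa3, an acute phase protein, rose 89.7-fold, or 58.5-fold with the small intestine array below background raised to its limit.

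Of 7 interleukin-6 signaling genes tested 2 rose, namely Il11 by 56.5-fold and Osmr by 5.72-fold. Among leukocyte adhesion genes 3 of 7 rose, with Cd44 at 9.71-fold, the endothelial selectin Selp at 5.81-fold and Icam2 at 2.95-fold. Of 9 TREM and S100 partner genes tested 5 rose and 1 fell. The calprotectin receptor Tlr4, measured on 1 small intestine array, rose by 3.32 on the log2 scale (adjusted p = 0.00289), or 2.13 with the others raised to their limit. Tlr2 rose 13.6-fold and Trem2, a macrophage relative of Trem1, 9.63-fold. The others, named after their values were seen, were Treml1 (at least 2.47-fold higher), S100a6 (3.13-fold higher) and S100a10 (3.17-fold lower). Against adjacent tissue, where 2.27% of all probes were called higher, 3 of 11 granule genes rose (Lcn2 by 4.39, Padi4 by 2.30 and Mmp8 at least 1.06-fold). So did 2 of 10 neutrophil surface genes (Clec4d at least 4.78-fold and Clec4e at least 1.87-fold) and 1 of 7 interleukin-1 induced genes (Saa3, by 5.18). Of the TREM and S100 partners 4 of 9 rose, namely Trem2 (at least 7.06-fold), S100a6 (4.87-fold), S100a11 (4.56-fold) and Tlr4 (3.19-fold). In the same comparison Il33 rose by 2.31 (adjusted p = 0.00593) and Il1rl1 by 2.42 (adjusted p = 0.00722).

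Markers of some other cell types also differed between small intestine and adenoma. Of 7 mast cell markers tested 5 rose between small intestine and adenoma, namely Mcpt2 (58.8-fold), Cpa3 (57.1-fold), Fcer1a (30.7-fold), Tpsb2 (6.74-fold) and Cma1 (at least 11.6-fold), and their summed signal went from a range of 0.57 to 3.57 up to 5.17 to 6.51. Cpa3 and Fcer1a were measured on 1 small intestine array, replicate 3, and with the others raised to their limit the folds were 27.6 and 14.9. Of 8 endothelial markers 6 rose, led by Cdh5 (15.2-fold), Tek (8.09-fold) and Eng (5.54-fold), while their summed signal was 3.67 to 4.18 in small intestine and 4.34 to 4.57 in adenomas. Of 10 macrophage markers 1 rose, Cd68, at least 1.57-fold, with sums of 4.26 to 4.64 and 4.14 to 4.45. B cell markers were called in 0 of 3 tested. Of 10 enterocyte markers 6 fell, led by Slc5a1 (24.7-fold lower) and Sis (24.4-fold lower), and of 8 epithelial markers 3 fell (Villin, Krt20, Cldn7) and 1 rose (Krt18). Colonocyte markers fell in 2 of 7 (Slc26a3, Car4) and rose in 1 (Aqp8). Their part in the members' differences was not tested. Between adjacent tissue and adenoma, 0 of 7 mast cell markers were called (median 3.76) and 0 of 8 endothelial markers (median 0.05). The same held for 0 of 10 macrophage markers (median 0.07) and 0 of 5 B cell markers (median -0.63), beside 2.27% of all probes called higher. In CT26 the macrophage markers were called lower than in adenomas in 9 of 10, and the mast cell markers in 7 of 7. Over all probes tested between CT26 and adenoma 18.7% were called lower. On each CT26 array only 3 to 4 of the 10 macrophage markers and 1 to 2 of the 8 mast cell markers were well above background. Most thus entered the test through adenoma alone and could hardly come out otherwise.

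The patterns most like those of Il1b and S100a8 were sought among 14853 other genes well above background in adenomas, by the root mean square difference of the centered log2 signal over the 14 arrays. For Il1b the closest were Dhh (0.47), Cidea (0.53), Pde10a (0.56), Rasal1 (0.76) and Kif26b (0.78). Dhh averaged 0.41 in adenomas and -7.13 in CT26, close to the course of Il1b. For S100a8 they were the monocyte chemokine Ccl2 (0.56), Sh2d5 (0.58), Fetub (0.68), Tnfsf9 (0.73) and Adam8 (0.76). Ccl2 averaged 0.98 in adenomas, -1.51 in CT26 and -3.96 in small intestine, with adenomas first and CT26 next, as for S100a8.

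Since most members moved together, their promoters were read, from 250 bases before to 50 after each start in RefSeq (GRCm38.p6, 12 windows for the 10 genes), on both strands. The motifs were the NF-kB core GGANNNTCC, the C/EBP pair TTGCNNAA and the PU.1 site GAGGAAGT, the last for factors of myeloid cells. The NF-kB core was in 8.62% of 32851 promoter windows and in those of 4 of the 10 genes. The matches, in capitals within 30 bases of their gene's strand, were as follows.
Il1r2, chr1:40085843-40086142, plus strand, NF-kB core at -106 from the start: gctttttcaaGGAACTTCCgactactctgt
Csf3r, chr4:126024409-126024708, plus strand, NF-kB core at -129: ccctgaggcaGGAAGGTCCctagctcacca
Il6, chr5:30012864-30013163, plus strand, NF-kB core at -43: atcaaatgtgGGATTTTCCcatgagtctca
Icam1, chr9:21015690-21015989, plus strand, NF-kB core at -153: acttcagtttGGAAATTCCtagatcgcagg
S100a9, chr3:90695672-90695971, minus strand, C/EBP pair at -236: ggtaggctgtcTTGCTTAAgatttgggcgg
Il6, same window, C/EBP pair read on the opposite strand at -128: acgacgtcacaTTGTGCAAtcttaataagg
S100a8, chr3:90668821-90669120, plus strand, PU.1 site read on the opposite strand at -172: ccaacactcccACTTCCTCagactcagaaa
The C/EBP pair was in 10.8% of all windows and in those of 2 of the 10 genes, and the PU.1 site in 3.2% and in that of 1. Il1r2, Il6 and Icam1, which hold the core, rose in adenomas, and so did Il1b, Il1rn, S100a8 and S100a9, whose windows had no match to it. Csf3r held the core and was not called in any comparison, but its probe shares runs with probes of other genes. Whether that probe reads Csf3r RNA was not tested. A match describes letters in this window and is not evidence of a bound factor.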

How the data were processed

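RNA of 14 samples was hybridized to SurePrint G3 Mouse arrays, with 1 color and 1 array per sample. The authors deposited the scanner files of Feature Extraction 10.7.3.1. The processed signal in them is a spot's intensity after background subtraction, not normalized between arrays, and probe positions are on mm9. The authors also deposited log2 values normalized between arrays, by a method not given in the sources used here, and these served as an alternative. Another 28 columns of values for single samples, counted over all 14 samples, were not used. Neither were the fold changes and p-values of the authors' own comparisons, for 7 pairs of groups.

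Here, control and outlier spots were dropped, signals were put on the log2 scale and set relative to the 75th percentile of their array, and spots of a probe were averaged (10 for Il1b, 2 for Il6). The number of arrays limits the precision. Groups came from the sample labels. Each comparison was a fit of its own arrays in R 4.3.3 with limma 3.58.1 (lmFit, eBayes). Probes entered it if at least 1 of the groups had them well above background throughout, and p-values were adjusted by Benjamini-Hochberg over all of these. A probe that entered through 1 group alone could hardly be called in the other direction. Comparisons that involve the same group share its arrays. The thresholds, a log2 difference of 1.2 and an adjusted p of 0.01, are those of the study's methods. Named were all members, all interleukin-1 family ligands and receptors, the 3 genes of each other list with the largest difference among those called between adenoma and small intestine, and the 5 genes most like Il1b and the 5 most like S100a8 in pattern. Neutrophil markers named as dim, markers of colon replicate 3 and genes named in other comparisons were chosen after their values were seen. The members and lists were chosen with earlier results of these data known. The fit was tested on simulated data.

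The alternatives took the authors' table, a normexp background (offset 50), quantile normalization, no filter or a strict filter on dim probes, or all 5 groups together. They also took slide or replicate number as block, an intensity trend in eBayes, low signals raised to a floor, an adjusted p of 0.05 with no minimum fold, or left out each array. Replicate numbers were not taken to pair the samples. In no comparison with 3 pairs did all arrays with the same number correlate over 0.1 in their deviations from the group means. Promoter sequences came from RefSeq (GRCm38.p6) and were searched in Python 3.11.15.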

Additional observations from a re-analysis of the deposited data

Results flagged for a closer look

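For 6 genes the difference between adenoma and small intestine differed from that between CT26 and colon, by a limma contrast over these 12 arrays. The gap on the log2 scale was 7.77 for Il1b, 7.72 for S100a9, 7.03 for Il1rn, 5.87 for Icam1, 3.77 for Il1r2 and 2.53 for S100a8, with adjusted p from 1e-05 (Il1b) to 0.00183 (Il1r2). In S100a8 both contrasts were positive, at 5.26 and 2.73, with no small intestine or colon array well above background. In the other 5 genes CT26 lay below colon, with no CT26 array well above background.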

How the results depend on the processing

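Over 60 results for single genes, 912 recomputed values kept direction and call, 79 lost the call, 10 gained it, and 15 changed sign, all of them uncalled before and after. Between adenoma and colon Trem1 (-0.01) came to 0.03 with the authors' table, 0.05 with normexp correction and 0.20 with slide as a block, and between the contrasts Csf3r (-0.38) came to 0.47 with the authors' table and 0.43 with quantile normalization. The other sign changes came from leaving out 1 array. Csf3r then ranged from -0.14 to 0.27 between adenoma and small intestine, -0.22 to 0.07 between adenoma and colon and -0.07 to 0.34 between colon and small intestine. Trem1 ranged from -0.41 to 0.38 between adenoma and colon, -0.68 to 0.10 between colon and small intestine and -0.18 to 0.61 between CT26 and colon. Il1r2 ranged from -0.27 to 0.95 between adenoma and adjacent tissue, and Il6 from -2.18 to 0.53 between CT26 and adenoma and -0.55 to 2.16 between the contrasts. Adenoma against small intestine kept its 7 calls without any 1 array (7 to 7) and had 2 under the strict filter, which tests only probes measured on every array of both groups. Adenoma against adjacent tissue, with 5 calls, gave 3 with the authors' table, normexp correction or the strict filter, 1 in a fit of all 5 groups or with slide as a block, and 0 without a filter, and 0 to 4 without 1 array. Against colon, adenomas gave 5 in a fit of all 5 groups, 1 with slide as a block, 0 under the strict filter and 0 to 5 without 1 array. CT26 against colon gave 0 with the authors' table, normexp correction, the strict filter or the floor, 1 with slide as a block and 1 to 3 without 1 array. CT26 against adenoma gave 1 under the strict filter, 7 without a filter and 6 to 6 without 1 array. The test between the contrasts gave 0 under the strict filter and 6 to 6 without 1 array. Adjacent tissue against small intestine gave 1, S100a9, at an adjusted p of 0.05 with no minimum fold, and 0 to 0 without 1 array, as did colon against small intestine. Apart from the strict filter, the floor, the blocks and the omissions, the cause of these changes was not tested.

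Arrays with the same replicate number shared only the number. Their deviations correlated at -0.01 and -0.0356 between adenoma and adjacent tissue and at 0.2907 and 0.1409 between adjacent tissue and small intestine, with 2 pairs each, and in no comparison with 3 pairs were all correlations over 0.1 (-0.3223 to 0.2377). With a replicate block, 1 member was called there and 1 between adenoma and colon, and 0 with the numbers in the sample titles as a block. The block changed no other count by over 1.5 times. The next brightest probe could not be tried, since each member has 1. With quantile normalization, adjacent tissue against small intestine had 4 probes higher and 1 lower, against 2 and 0, and colon against small intestine 3 and 7, against 1 and 1. Normexp correction moved the median of all probes from 0.37 to 0.12 between CT26 and colon. Signal over background limits Il1a, which was measured on 1 array, and every fold against a group below background.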
